A study of Mus musculus with 8 samples.

Results

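The 10 genes described here are the AP-1 and other immediate early genes Fos, Fosb, Fosl2, Jun, Junb, Jund, Atf3, Egr1, Ier2 and Zfp36, picked by symbol from the 34899 genes of the deposited lung endothelial table. Each symbol had 1 row, and all 10 genes passed the filter on low values, which kept 17067 genes for testing. Lungs of female C57BL6 mice were the source, and their endothelium was isolated by a sort for cells with CD31, the endothelial adhesion molecule, and without CD45, the leukocyte surface marker. There were 4 HF and 4 LF mice, names that the labels do not spell out, and the series title places the study in obesity and vascular inflammation. The labels used here state neither the age of the mice nor the time spent in tissue dissociation. Pooling of animals is not mentioned either. Values are the authors' normalised read counts, which are whole reads divided by a size factor for each library and are not scaled for gene length.

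Immediate early genes are transcribed within minutes of a stimulus without new protein synthesis, through kinases of the MAPK families and factors already present in the cell, such as SRF with its ELK partners and CREB. AP-1 is a dimer of basic leucine zipper proteins, built from a JUN protein with a FOS, JUN or ATF partner. In endothelium these genes respond to shear stress, growth factors and cytokines, and the enzymatic dissociation and sorting of tissue also induces them. All 8 libraries were made from sorted cells, and undissociated lung is not analysed here, so the part of each level that arose during sorting was not tested. In sorted populations, fewer cells with a transcript and less of it per cell cannot be told apart.

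The genes were abundant in every library. Together they held 0.94% to 1.13% of all normalised counts of a library. Scaled to exon length, 6 of the 10 stood among the 100 highest of the 17067 genes tested. Junb led, with 11697 ± 1397 normalised counts per kilobase of exon (mean ± SD over all 8 libraries). Fos at 9405 ± 1184, Jun at 9021 ± 851 and Ier2 at 8756 ± 761 counts per kilobase followed and differed from each other by less than their spread. Egr1 at 7467 ± 807 and Atf3 at 6614 ± 1826 counts per kilobase were also within their spread of each other. Zfp36 was at 4319.6 ± 702 counts per kilobase. Jund at 582 ± 321 and Fosb at 571 ± 117 counts per kilobase differed by less than their spread, and Fosl2 was lowest at 97.4 ± 15.3, against a median of 67.2 counts per kilobase over all genes tested.

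No member passed the test between groups. limma's moderated test on log2(normalised count + 1), with Benjamini-Hochberg adjustment, called 0 of the 10 members and 0 of 17067 genes at an adjusted p under 0.05 (0% of genes tested). Before adjustment, 1882 genes (11.0% of those tested) had a p under 0.05 in limma, and 1 member, Jund, was among them. The mean of log2 values, the measure behind each fold, was higher in HF for 9 of the 10 members, Fosb being the exception. It was higher for 53.2% of all genes tested, and for 63.2% of genes with a mean of at least 50 normalised counts. With quantile normalization it was 6 of 10 members, with Jun, Junb and Fosl2 changing sides. Without LF 1 it was 7 of 10 members (50.8% of all genes tested), and without LF 1 and LF 2 also 7 (45.4%). The median log2 fold change of HF over LF was 0.17 over the members and 0.023 over all genes tested. Over genes with a mean of at least 50 that median was 0.075. In no member did the HF and LF values separate without overlap, against 5.43% of genes tested. On whole reads recovered from the table, the quasi-likelihood test of edgeR called 0 genes, and 1905 (11.2%) had an unadjusted p under 0.05. DESeq2 called 313 (2.17% of those with an adjusted p), none of them a member. The authors' deposited table has 311 genes at an adjusted p under 0.05 (2.04%), and in it the adjusted p of the members ran from 0.396 for Jund to 0.946 for Fosl2.

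The libraries differed in ways that touch these genes. They held 10631506 reads assigned to genes (LF 1) to 20781564 (HF 4). The first principal component (36.1% of the variance) set LF 1 and LF 2 away from all others. The second (17.5%) set LF 3 and LF 4 apart, at -38.5 and -34.2, against -1.41 (LF 2) to 29.6 (HF 4) elsewhere. TEC genes, a GENCODE class of transcripts still to be verified, took 0.725% of reads in LF 1, 0.635% in LF 2 and 0.286% to 0.443% elsewhere. Fits that leave out either LF 1 with LF 2 or LF 3 with LF 4 are therefore given beside the results. The 10 endothelial markers summed to 164334 to 185507 normalised counts in HF and 122839 to 199645 in LF, with Pecam1, which encodes CD31, at 28252 ± 1063 and 25381 ± 6906 and Cdh5, the cadherin of endothelial junctions, at 13037 ± 196 and 11154 ± 1655. Leukocyte markers (10 genes) summed to 3661 to 6829 in HF and 6454 to 7758 in LF, and the CD45 gene Ptprc had 166 ± 72.8 and 199 ± 59 normalised counts. The 10 epithelial markers summed to 9683 to 18207 in HF and 12616 to 25932 in LF. The 10 mesenchymal markers summed to 2558 to 4589.9 and 3576 to 6769, and the 8 erythroid and platelet genes to 23100.2 to 26032 and 25124 to 44493. On the scale of the fits, 9 of the 10 endothelial markers were higher on average in HF (median of log2 fold changes 0.19), beside 9 of 10 members (0.17). The counts were 0 of 9 tested leukocyte markers (median -0.52), 2 of 10 epithelial (-0.48), 1 of 10 mesenchymal (-0.60) and 2 of 8 erythroid and platelet genes (-0.38). Erg was the endothelial marker lower in HF, at 706 ± 75.5 against 943 ± 111 in LF (fold 0.75, 0.616 to 0.912, limma adjusted p = 0.261). Every HF value of Erg lay below every LF value, and 5.43% of genes tested had no overlap in either direction. No marker was at 0 in every library, and the part of these cells in the members' values was not tested.

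**Figure D1:**
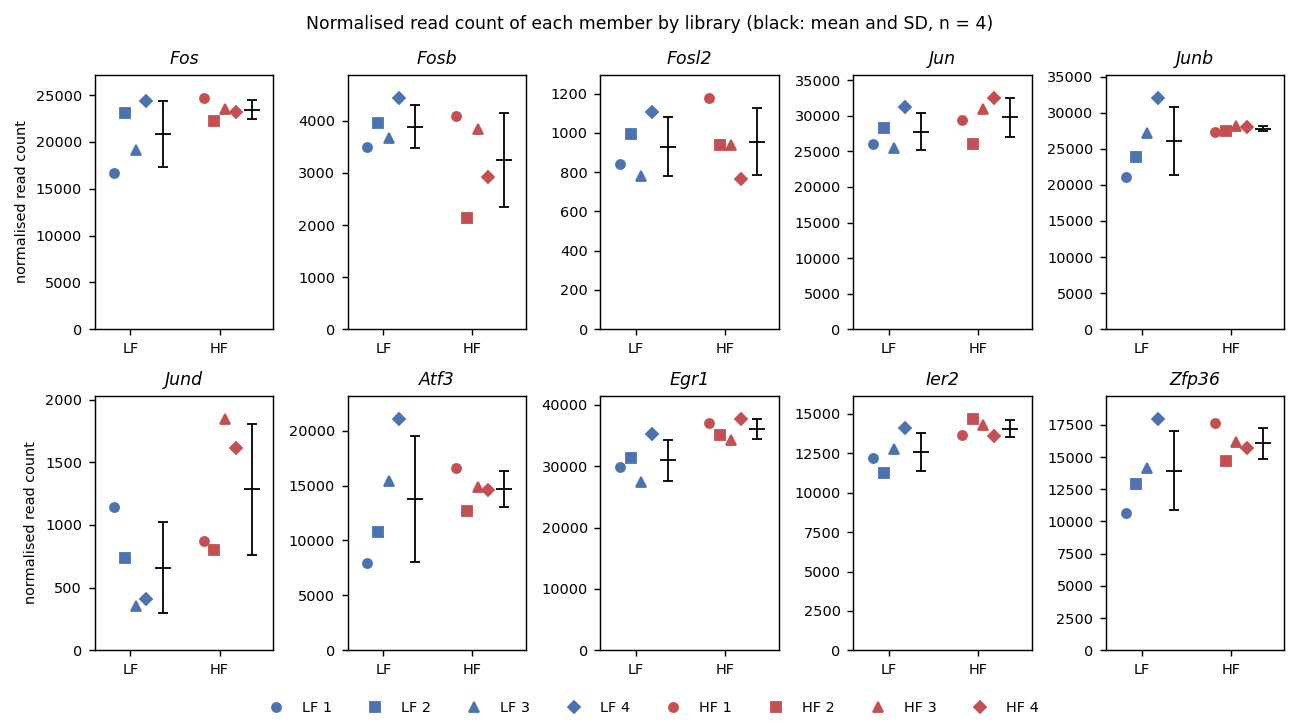
Normalised read count (vertical axis, from 0) of each of the 10 members in the 4 LF (blue) and 4 HF (red) libraries, with symbols for the replicate number and the mean ± SD in black. The groups overlap in every panel, and LF 4 is the highest library for Fosb, Junb, Atf3 and Zfp36 while LF 1 is the lowest for Fos, Junb, Atf3 and Zfp36.

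Among the FOS proteins, which cannot form AP-1 dimers with one another and need a partner such as JUN, Fos was by far the most abundant. The gene lies on chromosome 12 from 85473890 to 85477273 on the plus strand (GRCm38, GENCODE M21). It was at 24727, 22250.3, 23542 and 23232 normalised counts in HF 1 to HF 4, and at 16649, 23039, 19193 and 24329 in LF 1 to LF 4. The HF values lay close together, while LF 1 and LF 3 lay below all of them and LF 2 and LF 4 among them. The fold of HF over LF was 1.14 (95% interval 0.896 to 1.45, limma adjusted p = 0.669). Fosb, a FOS relative with a shorter splice form known for its stability, was the member with the lower mean in HF. Its normalised counts were 4092, 2129, 3839.7 and 2919 in HF and 3497, 3949, 3663 and 4443 in LF. HF 2 and HF 4 were the lowest libraries, and the other two HF libraries lay among those of LF (fold 0.812, 0.612 to 1.08, limma adjusted p = 0.57). Fosl2 (FRA-2), a FOS relative that lacks a strong activation domain, was at 765 to 1179 in HF and 781 to 1108 in LF, a fold of 1.02 (0.81 to 1.3, limma adjusted p = 0.94).

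As a share of the 3 FOS family transcripts, each scaled to exon length, Fosb made up 5.81%, 3.45%, 5.74% and 4.48% in HF 1 to HF 4 and 7.25%, 6.01%, 6.65% and 6.37% in LF 1 to LF 4. Every HF share of Fosb lay below every LF share, with means of 4.87% ± 1.13 and 6.57% ± 0.525 (SD, n = 4). Fos made up 94.2% ± 1.17 in HF and 92.4% ± 0.584 in LF. These shares were looked at after the values were seen and were not tested.

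Among the JUN proteins, which can pair with themselves and with FOS or ATF partners, Jun and Junb made up most of the transcripts. Jun is a single exon on chromosome 4 from 95049034 to 95052222 on the minus strand and shares 232 exonic bases with Junos on the other strand, which was at 79.5 ± 15.6 in HF and 95.9 ± 17.9 in LF. Jun was at 29452, 26098, 30952 and 32539.7 normalised counts in HF and 26089.7, 28318, 25408 and 31286 in LF. The groups were interleaved, and Jun had nearly the same spread in both (SD of log2 values 0.14 in HF and 0.14 in LF; fold 1.07, 0.851 to 1.35, limma adjusted p = 0.807). Junb, which often restrains JUN activity and lies on chromosome 8 from 84974484 to 84978718 on the minus strand, was at 27380.0, 27519, 28097 and 27988 in HF and 21139, 23881, 27245 and 32068 in LF. The HF values were within 1.03-fold of each other, whereas the LF values spanned 1.52-fold and lay on both sides of them (fold 1.08, 0.842 to 1.38, limma adjusted p = 0.807). The gene Prdx2 shares 173 exonic bases with Junb on the other strand in GENCODE M21, and Prdx2 was at 2946 ± 208 and 2735 ± 666.

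Jund, the JUN protein made constitutively in most cells, varied most. It was at 874, 798, 1847 and 1614 normalised counts in HF 1 to HF 4 and at 1139.5, 735, 355 and 407 in LF 1 to LF 4. HF 3 and HF 4 were the highest, LF 3 and LF 4 the lowest, and the other 4 libraries lay between them with LF 1 above HF 1 and HF 2. The fold was 2.03 (1.18 to 3.5), with an unadjusted p of 0.0145 and an adjusted p of 0.324 by limma. Without LF 1 and LF 2, limma called Jund higher in HF than LF 3 and LF 4 (log2 fold change 1.66, adjusted p = 0.00913; 3.09% of genes tested were called higher). Against LF 1 and LF 2 alone, that value was 0.39 (limma adjusted p = 0.378). The left-out pairs were chosen with earlier results of these data known, so neither p stands for HF against LF as whole groups. Jund lies on chromosome 8 from 70698949 to 70700616 on the plus strand of GRCm38 as a single exon, of which 877 bases are shared with the gene model Gm11175 on the other strand in GENCODE M21. Gm11175 has no row in the deposited table. The strand setting of the counting is not given. Whether reads of such shared bases were left out, or reads from the partners counted in, cannot be told.

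The upstream sequences of the 3 most abundant AP-1 genes are printed to show the elements that upstream factors are known to read. They are the 250 bases before the RefSeq transcript start on GRCm38.p6, 5′ to 3′ on the strand of the gene: chr12:85473640-85473889 (plus strand) for Fos, chr4:95052223-95052472 (minus strand) for Jun and chr8:84978749-84978998 (minus strand) for Junb. Capitals mark the motif TGACG, the core of the CREB and ATF site, or TGACATCA, the variant AP-1 site known from the human JUN promoter.
Fos: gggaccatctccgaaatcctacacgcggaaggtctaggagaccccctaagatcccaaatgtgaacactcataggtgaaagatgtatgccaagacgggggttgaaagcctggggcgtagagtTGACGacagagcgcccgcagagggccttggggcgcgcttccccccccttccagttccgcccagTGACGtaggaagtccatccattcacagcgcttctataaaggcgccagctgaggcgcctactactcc
Jun: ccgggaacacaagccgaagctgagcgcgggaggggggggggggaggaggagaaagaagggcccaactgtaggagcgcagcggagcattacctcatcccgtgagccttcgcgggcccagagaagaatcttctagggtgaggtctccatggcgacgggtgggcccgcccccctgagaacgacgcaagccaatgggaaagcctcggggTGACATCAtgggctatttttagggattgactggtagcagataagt
Junb: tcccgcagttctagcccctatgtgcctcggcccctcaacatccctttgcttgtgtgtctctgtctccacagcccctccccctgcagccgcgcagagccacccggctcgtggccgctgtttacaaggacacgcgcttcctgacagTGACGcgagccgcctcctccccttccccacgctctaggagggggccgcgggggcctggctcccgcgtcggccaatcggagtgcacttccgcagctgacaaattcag
TGACG begins at 129 and 66 bases before the start of Fos (-129 and -66) and at -106 in Junb, and TGACATCA begins at -45 in Jun. Of the 8 members with a row in the RefSeq promoter table, 4 held TGACG on either strand (Fos, Fosb, Junb and Atf3), as did 17.8% of 32851 upstream windows of the same length, and 2.93% of those windows held TGACATCA. The complete CREB site TGACGTCA and the AP-1 site TGANTCA were found in none of the 8 (1.55% and 6.75% of all windows). The CArG box, the element bound by SRF, was found in 1 of the 8, Zfp36 (1.47% of all windows). Sequence farther than 250 bases before the start was not searched, so sites there would be missed. Egr1 and Ier2 had no row and were not searched. The EGR site GCGGGGGCG was found in Fosb, Fosl2 and Zfp36 (2.57% of all windows). TGACG is part of TGACGTCA, and both strands were searched. The RefSeq starts were not always those of GENCODE M21. The Jund window ended at 70697738, while the GENCODE gene starts at 70698949. The windows of Fosl2, Atf3 and Zfp36 lay inside the GENCODE genes.

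Atf3, a stress-induced ATF protein that can repress transcription as a homodimer, had the widest LF spread after Jund. It lies on chromosome 1 from 191170296 to 191218039 on the minus strand. It was at 16614, 12655, 14871 and 14616 normalised counts in HF and 7973, 10744, 15420.0 and 21075 in LF. The HF libraries lay between LF 2 and LF 4, with LF 1 and LF 2 below all of them and LF 4 above all of them. The fold was 1.13 (0.776 to 1.65, limma adjusted p = 0.789). Its direction depended on which LF libraries were kept, since leaving out LF 1 and LF 2 gave a log2 fold change of -0.30 (limma adjusted p = 0.379), and leaving out LF 3 and LF 4 gave 0.66 (limma adjusted p = 0.0101).

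Egr1, a zinc finger factor induced through SRF and ELK proteins, was at 37006, 35032, 34285 and 37699 normalised counts in HF and 29901, 31319.7, 27341 and 35284 in LF. LF 1, LF 2 and LF 3 lay below every HF library and LF 4 among them, and the fold was 1.17 (0.926 to 1.47, limma adjusted p = 0.606). On the log2 scale the difference was 0.21 when LF 1 and LF 2 were left out (limma adjusted p = 0.495). It was 0.23 when LF 3 and LF 4 were left out (limma adjusted p = 0.104).

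Ier2, a small nuclear immediate early protein, was at 13681, 14695, 14296 and 13599 in HF and 12186, 11274, 12787 and 14090.4 in LF. As for Egr1, 3 LF libraries lay below all HF libraries and LF 4 among them (fold 1.12, 0.923 to 1.36, limma adjusted p = 0.645). Zfp36 encodes tristetraprolin, which binds AU-rich elements and speeds the decay of cytokine and immediate early transcripts. It was at 17605, 14728, 16171 and 15717 in HF and 10641, 12922, 14158 and 17970.4 in LF. LF 4 was above all HF libraries and the other 3 LF libraries below them (fold 1.17, 0.91 to 1.51, limma adjusted p = 0.623).

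**Figure D2:**
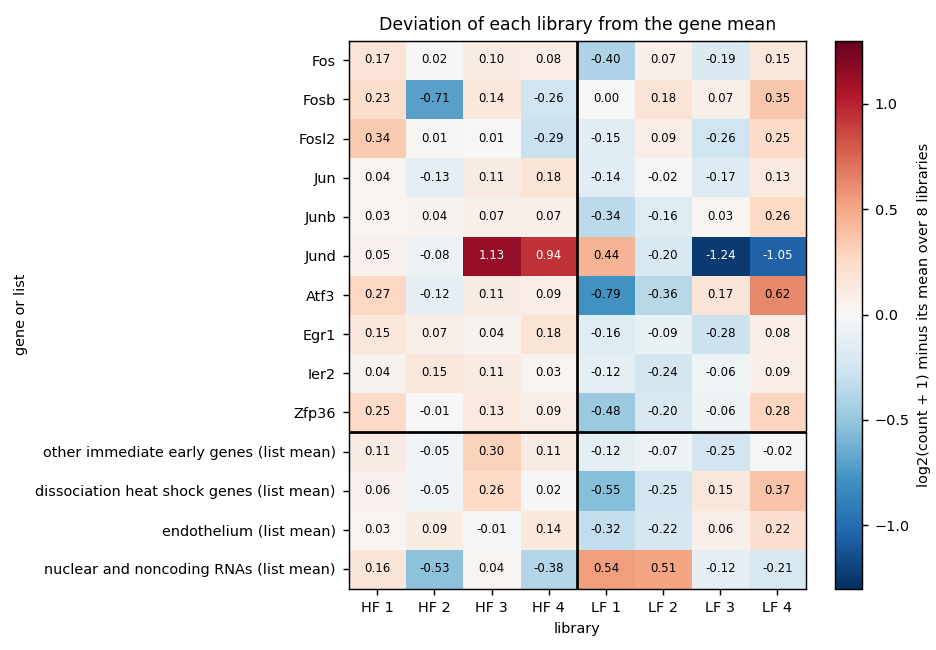
Difference of log2(normalised count + 1) from the mean over the 8 libraries for each member (upper rows) and the mean of that difference over 4 gene lists (lower rows), by library. Red is above and blue below the mean, and most members in LF 1 are below while most in LF 4 are above, and Jund is at -1.24 in LF 3 and -1.05 in LF 4.

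Across libraries, the members differed in how closely they followed their average. Averaged over the 10 genes, the deviation of log2 values from the gene means was 0.16, -0.076, 0.20 and 0.11 in HF 1 to HF 4 and -0.21, -0.091, -0.20 and 0.12 in LF 1 to LF 4. This average includes Jund, which was at 1.13 in HF 3 and -1.24 in LF 3. Without Jund and Fosb it was 0.16, 0.0038, 0.085 and 0.054 in HF and -0.32, -0.11, -0.10 and 0.23 in LF, so that LF 4 in place of HF 3 was the highest library, and LF 1 was the lowest both ways. HF 1 and HF 3 were above the gene mean in all 10 members, LF 4 in 9 and LF 1 in 2. LF 1 held the lowest value of 4 members and LF 3 of 3 (Jun, Jund and Egr1), while LF 4 held the highest of 4. The root mean square difference from the average of all 10 was 0.073 (log2) for Jun, 0.088 for Egr1, 0.10 for Fos and 0.13 for Junb, Ier2 and Zfp36. It was larger for Fosl2 at 0.19, for Fosb and Atf3 at 0.32 and for Jund at 0.74.

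The low normalised counts of the members in LF 1 went along with other transcripts of that library. As a share of all normalised counts of a library, the members were not lowest in LF 1. They held 1% there, 0.983% to 1.13% in the HF libraries and 0.94% in LF 3. The 16 heat shock genes known from dissociated cells summed to 69569 normalised counts in LF 1 and 90267 in LF 2, 124675 and 148597 in LF 3 and LF 4, and 111492 to 137054 in HF. The endothelial markers followed the same order within LF, from 122839 in LF 1 to 199645 in LF 4. The 7 long noncoding and other RNA quality transcripts with a row, Malat1 and Neat1 among them, ran the other way in LF, with 44048 in LF 1, 39461 in LF 2, 32392 in LF 3 and 26505 in LF 4, and held 24401 to 32857 in HF. Their part in the members' values was not tested.

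**Figure D3:**
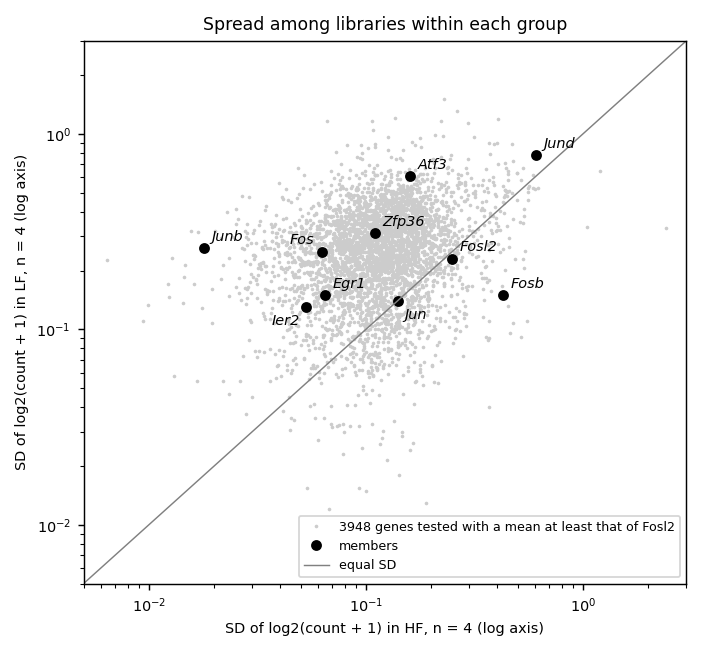
SD of log2(normalised count + 1) over the 4 HF libraries (horizontal log axis) and the 4 LF libraries (vertical log axis) for the 10 members (black) and for 3948 genes with a mean count at least that of Fosl2 (grey), with the line of equal SD. Junb lies farthest to the left among the members at 0.018 in HF against 0.26 in LF, and Fosb lies below the line at 0.43 in HF against 0.15 in LF.

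The spread among libraries was wider in LF for 7 of the 10 members. The median SD of log2 values over the members was 0.12 in HF and 0.24 in LF. Over the 3948 genes tested with a mean at least that of the lowest member, Fosl2, the medians were 0.11 and 0.26, and 85.9% of those genes had the larger SD in LF. A wider spread in LF was the common pattern among genes of such counts, and 71.5% of all genes tested had it. In HF the coefficient of variation was 1.26% for Junb, 3.7% for Ier2, 4.35% for Fos and 4.47% for Egr1, and in LF it was 18%, 9.39%, 16.9% and 10.7%. Fosb went the other way, with 27.7% in HF and 10.7% in LF. Jund had 41% and 54.9%, and its highest library was 5.2 times its lowest.

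**Figure D4:**
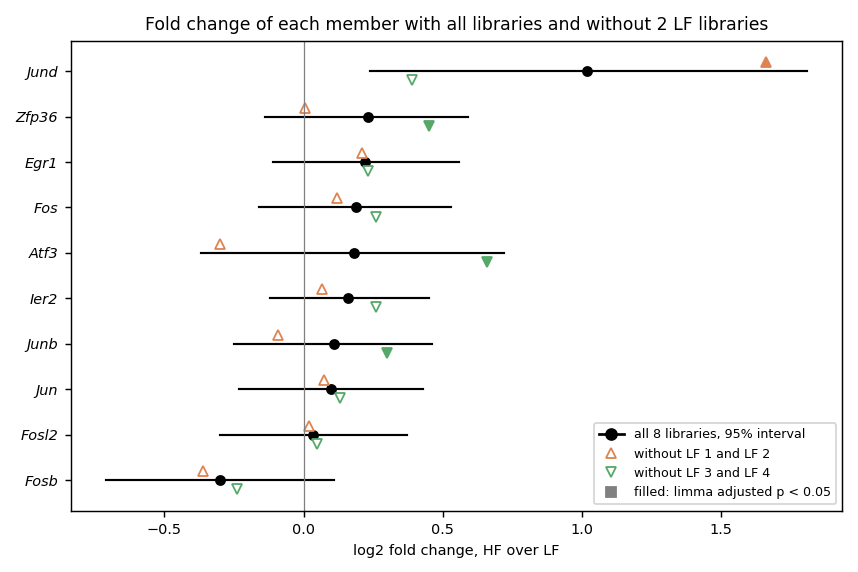
Log2 fold change of HF over LF for each member (horizontal axis) with all 8 libraries (black, 95% interval from limma) and without LF 1 and LF 2 (triangles up) or LF 3 and LF 4 (triangles down), filled where limma's adjusted p was under 0.05. Only the interval of Jund lies above 0 with all libraries, and the values without either LF pair differ most for Jund (1.66 and 0.39) and Atf3 (-0.30 and 0.66).

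The calls depended on which LF libraries were kept. Without LF 3 and LF 4, limma called Atf3, Zfp36 (log2 fold change 0.45, adjusted p = 0.0189) and Junb (0.30, adjusted p = 0.0444) higher in HF, 3 of 10 members, when 14.0% of all genes tested were called higher. Without LF 1 and LF 2 it called Jund alone among the members, and the log2 fold changes were 0.0064 for Zfp36 and -0.091 for Junb (limma adjusted p = 0.99 and 0.796). No member was called in both fits. These fits share the 4 HF libraries. Their left-out pairs were chosen with earlier results of these data known, so their adjusted p does not stand for HF against LF as whole groups. Single libraries also moved the log2 fold changes of members. Leaving out LF 1 moved Fos from 0.19 to 0.085, Junb from 0.11 to 0.011, Zfp36 from 0.23 to 0.11 and Atf3 from 0.18 to -0.053. Leaving out LF 4 moved Junb to 0.21, Zfp36 to 0.36 and Atf3 to 0.41, and leaving out HF 2 moved Fosb from -0.30 to -0.11. Jun, at 0.1, ranged from 0.055 without HF 4 to 0.16 without LF 4. For Jund, Egr1 and Ier2 no library left out moved the value by over 1.5 times. With LF 1 and LF 2 left out, the median was 0.044 over the members and -0.027 over all genes tested. With LF 3 and LF 4 left out, the medians were 0.26 and 0.032.

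The other members of the AP-1 family were described from a list of 17 genes, of which 14 were tested and 0 passed, with 8 means higher and 6 lower in HF (median log2 fold change 0.024). With edgeR and DESeq2, 6 of the 14 were higher. Fosl1, Batf3 and Nrl did not pass the filter; Fosl1 was at 3.15 to 15.2 and Batf3 at 2.44 to 9.03 normalised counts. Maff, a small MAF protein without an activation domain, was at 333 ± 60.3 in HF and 227 ± 26.7 in LF (fold 1.46, 1.13 to 1.88, limma adjusted p = 0.263). Batf, an AP-1 factor of immune cells, was at 15.4 ± 9.21 and 28.2 ± 11.8 (limma adjusted p = 0.504). Atf2 had a fold of 1.05, Jdp2, a repressor that pairs with JUN, 1.31, and Mafk, whose direction turned with edgeR and DESeq2, 1.02 (limma adjusted p = 0.816, 0.54 and 0.976).

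Among 51 tested immediate early genes outside the 10, none passed limma's adjusted threshold. Of these, 41 were higher on average in HF, against 53.2% of all genes tested and 63.2% with a mean of at least 50. The median log2 fold change was 0.19. With LF 1 and LF 2 left out, 29 of the 51 were higher (45.4% of all genes tested) with a median of 0.12. With quantile normalization it was 33 with a median of 0.11, and with edgeR and DESeq2 37 with a median of 0.15. In 6 of them every HF value lay above every LF value, against 3.47% of all genes tested. Dusp1, the phosphatase that switches off MAP kinases, was at 31668, 33225, 29697 and 32934 normalised counts in HF and 21496, 25352, 17579.9 and 22382 in LF. All 4 HF values of Dusp1 exceeded all 4 LF values (fold 1.48, 1.17 to 1.88, limma adjusted p = 0.209). Rhob, a small GTPase of endosomes and the cytoskeleton, was at 2697 ± 635 and 1703 ± 109 (fold 1.55, limma adjusted p = 0.179). Cebpd, a C/EBP factor, was at 7212 ± 1311 and 3678 ± 1347 (fold 2.04, limma adjusted p = 0.163). Zfp36l2, a relative of tristetraprolin that also binds AU-rich elements, was at 1184 ± 251 and 704 ± 156 (fold 1.68, limma adjusted p = 0.17), while the related Zfp36l1 was at 1161 ± 43.8 and 1134 ± 43.6. The other two were Btg1 and Per1, named after their values were seen, with folds of 1.29 and 1.43.

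DESeq2 on the recovered reads called 5 of the 51, Dusp1, Klf2, Rhob, Cebpd and Zfp36l2, all higher in HF, where it called 1.57% of all genes higher and 0.596% lower. Klf2, a factor induced by laminar flow, was at 5639, 7445, 11259.6 and 12049.9 in HF and 6491, 4882, 3023 and 2750.2 in LF. As in Jund, HF 3 and HF 4 were the highest and LF 3 and LF 4 the lowest, with LF 1 above HF 1 (fold 2.16, 1.39 to 3.35, limma adjusted p = 0.191). Against LF 3 and LF 4 alone, 8 of the 51 were called higher by limma, Dusp1, Klf2, Cebpd, Zfp36l2 and Ier5 among them, and Gem, a small GTPase, lower (named after its values were seen), against 3.76% of all genes called and 0.662% called lower. Without LF 3 and LF 4 it called 12 higher and 0 lower, when 20.0% of all genes were called and 6.02% were called lower, with Dusp1, Rhob, Cebpd, Ier3, Klf6 and Socs3 among them.

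Other well-known immediate early genes lay on both sides of 1 in fold, and none passed the test. Ier3, an inhibitor of apoptosis, had a fold of 1.21, Ier5 1.51, Socs3, the feedback inhibitor of cytokine receptors, 1.34, and the orphan receptors Nr4a1 and Nr4a2 1.17 and 1.21. Klf4 and Klf6 had folds of 1.19 and 1.11, the antiproliferative gene Btg2 1.14 and the EGR1 relative Egr2 1.08. Egr3 at 0.729, Myc at 0.714 and the matricellular gene Ccn1 (Cyr61) at 0.934 had the lower mean in HF, and Gadd45b at 0.994 was level. The limma adjusted p of these 13 genes lay between 0.368 and 0.984.

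**Figure D5:**
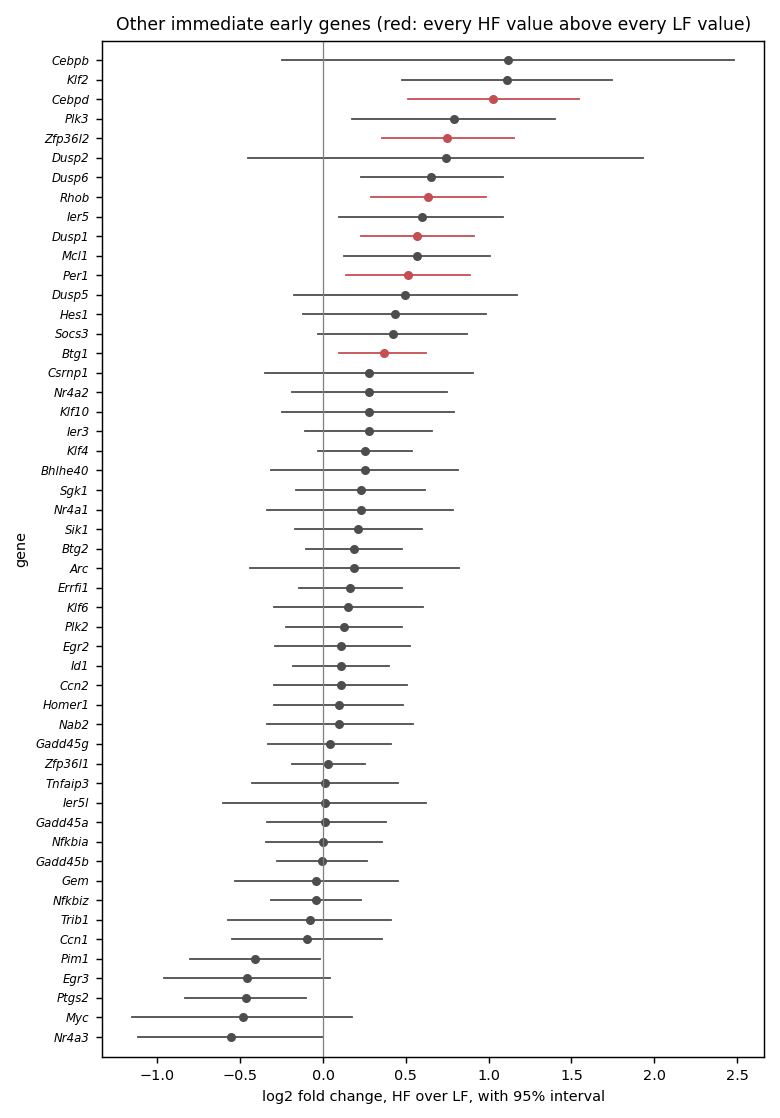
HF-over-LF log2 fold change and 95% interval from limma (horizontal axis) for the 51 tested immediate early genes outside the 10 members, ordered by value. The 6 genes whose groups did not overlap, all higher in HF, are in red, and 41 of the 51 points lie to the right of 0.

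Of 32 tested kinases and factors that act upstream of these genes, 26 were higher on average in HF. Over all genes tested the share was 53.2%, and over those with a mean of at least 50 it was 63.2%. Of the 32, 0 passed limma's test, and their median log2 fold change was 0.14. Rps6ka1, the ribosomal S6 kinase RSK1, was at 3433 ± 525 in HF and 2497 ± 195 in LF, with every HF value above every LF value (fold 1.37, limma adjusted p = 0.221). Such a separation was seen in 3 of the 32, Rps6ka1 included, and in 3.47% of all genes tested. Srf was at 130.4 ± 58.4 and 111 ± 31.2, and the SRF partner Elk3 at 5238 ± 290.0 and 4686 ± 648 (limma adjusted p = 0.846 and 0.633).

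Of 12 tested transcripts known as targets of tristetraprolin, 3 had the higher mean in HF, against 53.2% of all genes tested. Of the 12, 0 passed limma's test, and their median log2 fold change was -0.31. The 3 higher ones were the most abundant of the list: Ier3, Vegfa and Plaur (the last 2 named after their values were seen). Their normalised counts were 20477 ± 1724, 12383 ± 825 and 5700.4 ± 476 in HF. In LF they were 17188 ± 3816, 9958 ± 1789 and 4803 ± 1665 (limma adjusted p = 0.578, 0.447 and 0.593). Ptgs2, the inducible cyclooxygenase, was at 625 ± 151 in HF and 849 ± 84.2 in LF (fold 0.723, limma adjusted p = 0.334), and Il1b at 152 ± 71.3 and 301 ± 155 (fold 0.515, limma adjusted p = 0.362). Leaving out LF 1 and LF 2 gave the list a median of -0.59, and leaving out LF 3 and LF 4 gave 0.059. Il1b is a transcript of myeloid cells, and Lyz2 and Itgam, markers of such cells, were at 3855 ± 1165 and 5399.9 ± 766, and at 8.93 ± 9.42 and 24.6 ± 9.15, in HF and LF. Whether leukocyte RNA enters the Il1b values was not tested.

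Heat shock genes of the dissociation response had the higher mean in HF in 14 of 16 cases (median log2 fold change 0.16), with 0 passing limma's test. Hspa1a and Hspa1b, the inducible HSP70 genes, are near-identical copies between which reads can be split. They were at 8283 ± 2648 and 13537 ± 3579 in HF and at 8336 ± 4592 and 13833 ± 7055 in LF. Their linear means were thus slightly lower in HF while their folds on the log2 scale were 1.09 and 1.06, which turned below 1 with edgeR and DESeq2. Hspa8 had a fold of 1.31, Dnajb1 1.09 and Cryab 0.744 (limma adjusted p = 0.546, 0.752 and 0.435). With LF 1 and LF 2 left out, 1 of the 16 was higher on average in HF (45.4% of all genes tested) and the median was -0.16. With LF 3 and LF 4 left out instead, it was 15 of 16 (52.5% of all genes tested) with a median of 0.52.

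The genes outside the 10 whose levels ran closest to the members' mean pattern over the 8 libraries were Inf2, Fgd5, Il20rb, Dele1 and Dgkz. Their root mean square difference from it was 0.046, 0.054, 0.056, 0.062 and 0.064 on the log2 scale. That pattern includes Jund, itself at 0.74, and Jun, the nearest member, was at 0.073. Inf2, an actin-regulating formin, was at 350.4 ± 37 and 297 ± 33.3 in HF and LF, and Fgd5, an endothelial exchange factor for CDC42, at 4917 ± 339.9 and 4346 ± 643. Nearest to Jund, in a search added after its values were seen, were Srsf9, Bloc1s3 and Bod1, at 0.15, 0.18 and 0.19. Srsf9, a splicing factor, was at 461, 568, 1023 and 1042 normalised counts in HF 1 to HF 4 and at 632, 464, 246 and 249.9 in LF 1 to LF 4. LF 1 lay above HF 1 and HF 2 as in Jund, a likeness that the search itself selects for.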

How the data were processed

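RNA of 8 sorted lung endothelial samples was made into SMART-Seq libraries, per the labels' protocols. Processing used STAR 2.6.1b, featureCounts 2.0.0 and DESeq2 1.24.0, per the submitters' processing notes; the labels name neither genome build, annotation nor strand setting. The deposited signal per library is a normalised read count, and the authors' table also gives a log2 fold change, its standard error and Wald score, and p-values. Dividing by the step between low values gave whole reads (tolerance 0.01) for 100% of values, 10631506 to 20781564 per library. All 34899 gene IDs matched GENCODE M21, 24 symbols turned into dates were restored, and 0 per-sample columns were left unmatched.

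The main test was limma 3.58.1 (R 4.3.3) with its variance trend, applied to log2(normalised count + 1) for HF against LF. It covered the 17067 genes that reached 10 normalised counts in 4 libraries or more, with Benjamini-Hochberg adjustment and a threshold of 0.05. Fold changes are on that scale, which understates the change of low genes. edgeR 4.0.16 and DESeq2 1.42.0 on the recovered reads were alternatives, and the fits were tested on simulated data. The design text gives 4 mice per group. Every pair of libraries compared differed by more than sampling noise (chi-square per degree of freedom 10.1 to 51.3). The members, lists and left-out pairs were chosen with earlier results of these data known. Genes named were the members, a set of known family and pathway genes, up to 2 genes of lowest p in each other list, and the 5 most like the members; others are said to be chosen afterwards. Promoters are RefSeq's (GRCm38.p6). A gene of the upstream list is not reported here.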

Additional observations from a re-analysis of the deposited data

Results flagged for a closer look

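No member held a library far from the rest of its group. Among 122 groups of 4 libraries (61 genes), 2 values stood apart from the other 3 libraries by Dixon's test, and chance gives about 1 in 20 groups. Itgam, an integrin of myeloid cells, was at 38.1 normalised counts in LF 3, against 18.3 to 21.5 in the other LF libraries. Hbb-bt, a beta globin, was at 2232 normalised counts in HF 2.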

How the results depend on the processing

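limma called 0 genes; DESeq2 called 313, limma with no filter 1, limma without LF 1 and LF 2 called 641, limma without LF 3 and LF 4 called 3421, and leaving out 1 library gave 0 to 1 (1 without LF 2, and 1 without LF 4). Members called were 0, 1 without LF 1 and LF 2 (Jund), 3 without LF 3 and LF 4 (Junb, Atf3 and Zfp36), and 0 with any 1 library left out. Their median log2 fold change stayed above 0 in every alternative run, from 0.044 without LF 1 and LF 2 to 0.26 without LF 3 and LF 4, and 0.078 to 0.24 with 1 library left out. Directions turned as follows, on the log2 scale, and the cause was not tested. Quantile normalization gave -0.079 for Fosl2, -0.02 for Jun, -0.055 for Junb, -0.049 for Atf2, -0.067 for Mafk, -0.078 for Zfp36l1 and -0.0028 for Hspa1b. edgeR gave -0.10 for Mafk, -0.014 for Hspa1a and -0.037 for Hspa1b, and DESeq2 -0.11, -0.02 and -0.043. Upper-quartile rescaling gave -0.0013 for Mafk and array weights 0.0028 for Gadd45b. Without LF 1 and LF 2, Junb was at -0.091, Atf3 -0.30, Mafk -0.47, Egr2 -0.017, Klf6 -0.20, Elk3 -0.0014, Hspa1a -0.48, Hspa1b -0.45, Dnajb1 -0.085, Pecam1 -0.14, Hspa8 -0.043 and Neat1 0.081. Without LF 3 and LF 4, Gadd45b was at 0.03, Ccn1 0.048 and Srf -0.18. With 1 library left out, Fosl2 ranged from -0.071 to 0.14, Atf3 from -0.053 to 0.41, Mafk from -0.25 to 0.32, Egr2 from -0.019 to 0.25, Nr4a1 from -0.039 to 0.38, Klf6 from -0.026 to 0.33, Gadd45b from -0.071 to 0.07, Ccn1 from -0.23 to 0.065, Srf from -0.071 to 0.38, Hspa1a from -0.27 to 0.44 and Hspa1b from -0.25 to 0.38. Deviations from the group means had r of 0.115, -0.222, -0.143 and 0.185 between same-numbered libraries. Between HF and LF libraries of different number, r ran from -0.22 to 0.306. With 4 libraries a group, these values cannot show whether the numbers pair libraries. With the replicate block limma called 0 genes and 0 members, with Jund at an adjusted p of 0.432 and a members' median of 0.17. With 4 libraries a group, the 95% intervals of the members span folds such as 0.896 to 1.45 for Fos.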
